A study of Mus musculus with 18 samples.

Results

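Mast cells carry IgE on the high-affinity IgE receptor, and antigen that cross-links it sets off a burst of gene activity within hours. The comparison described here asked whether that burst differed between mast cells without Dnmt3a and wild-type mast cells at 4 h. Its subject is the difference between 2 changes. The 4 h change was taken within each culture, as its 4 h array minus its untreated array on the log2 scale. The mean change of 3 knockout (KO) cultures, minus the mean change of 3 wild-type (WT) cultures, is called the difference in response below. A positive value means that the KO change lay above the WT change. The comparison used 12 of the 18 arrays in the series. The 6 arrays taken at 24 h entered only the normalization, the choice of genes and probes, and the estimate of the spread.

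The KO groups were mast cells labelled Dnmt3a KO after 4 h of IgE and antigen (cultures 3, 4 and 6) and the same cultures untreated. The WT groups were mast cells labelled Dnmt3a WT after 4 h of IgE and antigen (cultures 6, 8 and 9) and the same cultures untreated. Each of these 4 groups had 3 Illumina bead arrays, and all labels give 5 weeks and female. They do not say whether 5 weeks is the age of the animals or of the cultures, how Dnmt3a was deleted, which antigen was used, or whether a numbered culture came from 1 mouse. KO culture 6 and WT culture 6 share only a number. Array names put KO culture 3 and WT culture 6 on slide 1, KO culture 4 and WT culture 8 on slide 2, and KO culture 6 and WT culture 9 on slide 3. Values are given in the order of the culture numbers, so that a genotype's values stand in the order of slides 1, 2 and 3.

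Median probe signals of the 18 arrays ran from 93.4 to 159 and 28.7% to 33.8% of the probes on an array lay above its detection limit, which left 8985 genes to test. The number of arrays limits the precision. The genotype labels could not be checked on Dnmt3a itself, since its 3 probes were above the limit on 0 of 18 arrays. Of 14 mast cell markers 13 were measured. Each was above the limit on all 12 arrays used here except the protease Mcpt4, which was above it on 8.

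Receptor signalling in mast cells runs through calcium and through the MAP kinases. Calcium activates the phosphatase calcineurin, which sends NFAT factors into the nucleus, where they bind sequences built around GGAAA and switch on cytokine genes. The response also induces its own brakes. Among them are Rcan1, a calcineurin inhibitor whose gene has a calcineurin-driven start inside the locus, and the DUSP phosphatases, which switch MAP kinases off. Dnmt3a is an enzyme that methylates DNA de novo, and DNA methylation helps to keep genes silent in a cell lineage.

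The sequences shown here belong to genes on which the results turn: Lta and Rcan1, whose KO changes lay above the WT changes, Ppp1cb, whose KO changes lay below them, and Tnf, which sits beside Lta. Each is the window of 250 bases before a gene start, from RefSeq on the GRCm38.p6 build, written 5′ to 3′ on the gene's strand. Capitals mark GGAAA or, for the other strand, TTTCC. The Lta window is chr17:35205352-35205601 (minus strand), the Tnf window chr17:35202008-35202257 (minus strand) and the Ppp1cb window chr5:32458720-32458969 (plus strand). Rcan1 has 2 annotated starts, with windows at chr16:92466170-92466419 and chr16:92400079-92400328 (minus strand), and which start gave the RNA that the probe measured was not determined.
Lta: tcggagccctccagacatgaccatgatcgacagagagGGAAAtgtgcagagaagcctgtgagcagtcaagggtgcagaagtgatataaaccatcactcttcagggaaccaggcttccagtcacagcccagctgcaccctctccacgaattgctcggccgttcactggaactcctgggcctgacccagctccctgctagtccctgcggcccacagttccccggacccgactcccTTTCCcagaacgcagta
Tnf: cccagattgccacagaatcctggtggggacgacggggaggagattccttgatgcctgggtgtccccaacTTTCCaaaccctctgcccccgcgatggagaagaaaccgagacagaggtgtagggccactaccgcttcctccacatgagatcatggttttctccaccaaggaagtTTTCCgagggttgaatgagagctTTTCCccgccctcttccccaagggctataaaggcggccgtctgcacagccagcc
Rcan1, first start: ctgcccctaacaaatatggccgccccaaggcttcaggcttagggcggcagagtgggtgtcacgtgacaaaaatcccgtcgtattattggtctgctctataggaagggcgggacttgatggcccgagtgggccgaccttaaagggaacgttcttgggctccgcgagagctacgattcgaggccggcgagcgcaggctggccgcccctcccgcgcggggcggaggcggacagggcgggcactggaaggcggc
Rcan1, second start: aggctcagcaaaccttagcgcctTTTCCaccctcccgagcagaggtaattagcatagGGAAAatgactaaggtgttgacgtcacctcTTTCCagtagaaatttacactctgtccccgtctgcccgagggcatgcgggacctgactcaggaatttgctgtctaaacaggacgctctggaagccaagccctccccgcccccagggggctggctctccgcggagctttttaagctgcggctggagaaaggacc
Ppp1cb: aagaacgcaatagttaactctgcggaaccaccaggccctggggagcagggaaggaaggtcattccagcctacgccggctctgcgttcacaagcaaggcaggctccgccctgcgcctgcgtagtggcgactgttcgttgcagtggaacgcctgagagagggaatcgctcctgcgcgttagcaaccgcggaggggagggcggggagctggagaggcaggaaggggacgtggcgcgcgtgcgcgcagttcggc

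The letters GGAAA occurred on either strand 2 times in the Lta window, 3 times in the Tnf window, 3 times at the second Rcan1 start, 0 times at its first start and 0 times in the Ppp1cb window. They are common: 55.6% of all 32851 windows of this length held them, as did 54.1% of the windows of the genes tested. Of the 10 genes with the smallest p for a higher KO change, 9 had a window, and 10 of their 13 windows held the letters. Of the 10 with the smallest p for a lower KO change, 8 had a window, and 5 of 9 windows held them. A match is a description of the sequence and shows no binding.

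No gene passed an adjusted p of 0.05 in the fit across all genes (limma, Benjamini-Hochberg), 0 of 8985 (0%), and 216 genes (2.4%) had an unadjusted p below 0.05. Of these, 103 (1.15%) had the higher change in KO cultures and 113 (1.26%) the lower. The smallest adjusted p was 0.365, for Ppp1cb. All 3 KO changes lay above all 3 WT changes for 394 genes (4.39%) and below them for 360 genes (4.01%). Against their own untreated arrays, 241 genes (2.68%) rose and 170 (1.89%) fell in KO cultures, and 371 (4.13%) rose and 396 (4.41%) fell in WT cultures, at an adjusted p below 0.05. A difference in response of 1 or more on the log2 scale was found for 29 genes (0.323%) and one of -1 or less for 2 genes (0.0223%).

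Arrays on 1 slide and in 1 condition deviated together, as the correlations further on show, so the difference was also taken within slides, as KO minus WT change on each slide. In this slide-paired fit 9 genes (0.1%) passed, 8 with a higher KO change (0.089%) and 1 with a lower one (0.0111%), and 753 genes (8.38%) had an unadjusted p below 0.05. The 8 were Lta, Rln3, Xcl1, Lgals7, Ccn4, Dusp2, Tgm2 and Rcan1, and the 1 was Ppp1cb. The labels do not say that cultures of 1 slide were grown or treated together, so these calls rest on reading the slide as a pairing. Without slide 3 the slide-paired fit passed 6 genes (0.0668%), which were Lta, Ccn4, Rln3, Fasl, Tnfaip2 and, with a lower KO change, Ccl7. The genes Lta, Ccn4 and Rln3 passed both with and without slide 3. Ccn4, Lgals7 and Fasl were above the detection limit on 0 of 6 WT arrays, so their WT change was not measured and their calls do not rest on a measured difference in change. Tgm2 and Fasl are named because of these fits, after their values were seen.

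**Figure D1:**
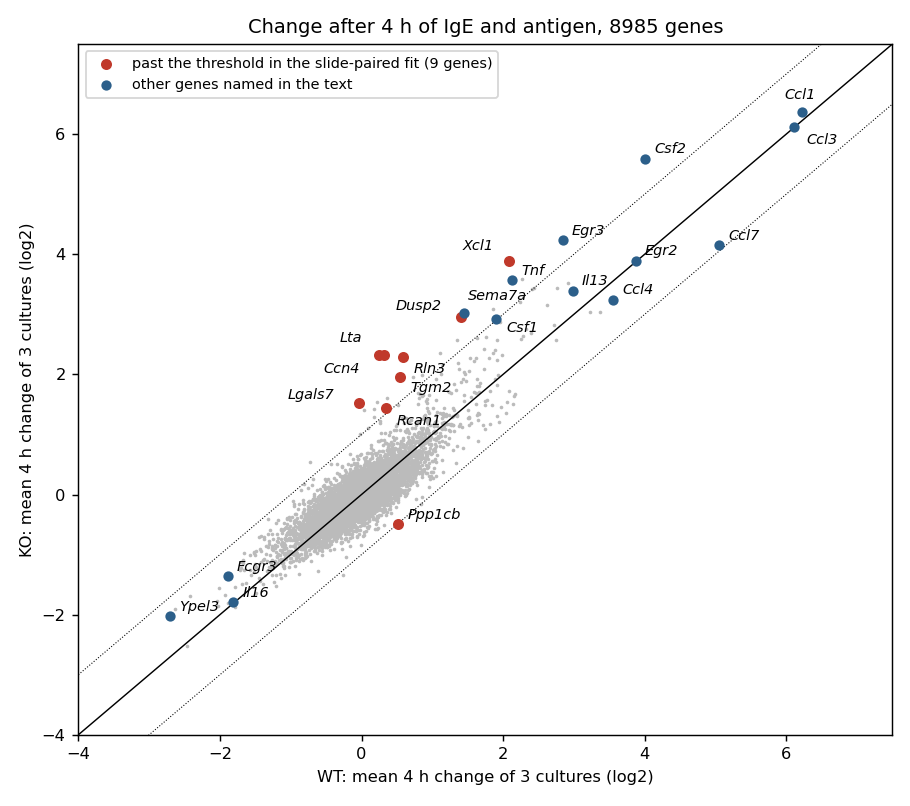
Mean change after 4 h of IgE and antigen in 3 KO cultures (vertical, log2) against that in 3 WT cultures (horizontal, log2), 1 point per gene for 8985 genes. The solid line marks equal changes and the dotted lines a difference of 1 on the log2 scale; 8 of the 9 red genes, past the threshold in the slide-paired fit, lie above the upper dotted line, Ppp1cb lies at -1.01, just past the lower one, and the chemokines Ccl1 and Ccl3 lie near equality.

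Lta encodes lymphotoxin alpha, a relative of TNF that shapes lymphoid tissue. Its log2 levels at 4 h were 10.33, 8.38 and 9.39 in KO cultures, against 7.45, 6.51 and 6.26 in WT cultures. In untreated cells they were 7.20, 6.77 and 7.15 in KO cultures, against 6.53, 6.56 and 6.38 in WT cultures. Every KO array lay above every WT array of the same condition. The probe was above the detection limit on all 6 KO arrays, on 1 of 3 WT arrays at 4 h and on 0 of 3 untreated WT arrays, so that the WT change is largely one between signals below the limit. The changes were 3.13, 1.61 and 2.24 in KO cultures, against 0.92, -0.05 and -0.12 in WT cultures, and did not overlap. The difference in response was 2.08 ± 0.39 (SE, log2), with an adjusted p of 0.479 in the fit across all genes and 0.000382 in the slide-paired fit. Without slide 3 the slide-paired difference was 1.94, with an adjusted p of 0.00725.

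Tnf, the neighbouring gene and the best known member of the family, moved in the same direction with more spread. Its changes were 4.90, 1.81 and 3.99 in KO cultures, against 3.67, 1.16 and 1.56 in WT cultures. The KO change was higher on each slide, by 1.23, 0.64 and 2.42, but the genotypes overlapped, since the change of KO culture 4 lay below that of WT culture 6. The difference of 1.43 ± 0.72 did not pass either fit (adjusted p = 0.9997 and 0.192), and a second Tnf probe gave 1.26. Fasl, the ligand of the death receptor Fas, was above the limit only on 2 of 3 KO arrays at 4 h, with levels of 8.70, 7.54 and 6.62 in KO cultures, against 6.13, 6.50 and 6.02 in WT cultures. In KO cultures its 4 h level was at least 1.82-fold above the untreated one. In WT cultures it was below the limit on all 6 arrays, so no WT change was measured.

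Xcl1, a chemokine that attracts dendritic cells and lymphocytes, was below the limit on every untreated array. At 4 h its levels were 11.61, 9.87 and 7.93 in KO cultures, against 10.34, 7.73 and 5.84 in WT cultures, where WT culture 9 stayed below the limit. The 4 h level was at least 8.24-fold above the untreated one in KO cultures and at least 2.38-fold in WT cultures. On each slide the KO change was the higher, by 1.37, 2.09 and 1.97, although KO culture 6 lay below WT culture 6. The difference was 1.81 with an SE of 1.06 across cultures and of 0.27 within slides, and the adjusted p was 0.9997 and 0.0357.

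Ccn4 encodes a matrix-associated signalling protein of the CCN family. At 4 h its levels were 10.06, 8.08 and 7.86 in KO cultures, against 6.39, 6.11 and 6.16 in WT cultures. It was above the limit on all 3 KO arrays at 4 h and on 0 of the other 9 arrays, so a 4 h signal was measured only in KO cultures. The 4 h KO level was at least 3.76-fold above the untreated one. Among the 12 arrays used here, only the 4 h KO arrays helped Ccn4 to pass the filter on dim probes. The call of Ccn4 within slides is thus no test of a difference between 2 measured changes.

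Rln3 encodes the peptide hormone relaxin-3, known mainly as a brain peptide. At 4 h its levels were 8.62, 9.57 and 8.92 in KO cultures, against 7.17, 7.71 and 6.52 in WT cultures. Untreated levels were 6.74, 6.60 and 6.89 in KO cultures, against 6.49, 6.53 and 6.61 in WT cultures, near or below the limit throughout. The changes of 1.89, 2.97 and 2.03 in KO cultures lay above those of 0.69, 1.18 and -0.10 in WT cultures. The difference was 1.70 ± 0.37, with an adjusted p of 0.856 across all genes and 0.00441 within slides.

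Lgals7, which encodes the sugar-binding protein galectin-7, was detected on all 6 KO arrays and on 0 of 6 WT arrays. Its levels at 4 h were 9.87, 7.95 and 9.83 in KO cultures, against signals of 6.41, 6.31 and 6.10 in WT cultures. Untreated levels were 8.08, 7.12 and 7.89 in KO cultures, against 6.30, 6.24 and 6.36 in WT cultures. The gene was thus already measurable in resting KO cells, and its KO changes were 1.79, 0.84 and 1.94. The KO minus WT value was 1.55 for this probe and 0.60 and 1.25 for the 2 other Lgals7 probes. With no WT array above the limit, the 1.55 is not a difference between 2 measured changes. Tgm2, which encodes an enzyme that cross-links proteins, differed widely among cultures at rest, with levels of 11.35, 8.12 and 8.68 in KO cultures, against 12.63, 10.68 and 8.72 in WT cultures. Its changes of 1.33, 3.13 and 1.40 in KO cultures overlapped those of 0.02, 2.38 and -0.77 in WT cultures. Within slides the KO change was higher by 1.31, 0.75 and 2.17, and the SE was 1.09 across cultures and 0.23 within slides (adjusted p = 0.9997 and 0.0475).

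Sema7a encodes a membrane-anchored semaphorin that acts on immune cells through integrins. Its 4 h levels were 9.34, 9.03 and 9.62 in KO cultures, against 8.60, 8.27 and 7.15 in WT cultures, and did not overlap. At rest it was above the limit on 0 of 3 KO arrays and 1 of 3 WT arrays. The difference was 1.58 ± 0.42, with an adjusted p of 0.9997 across all genes and 0.125 within slides. It was 1.08 without WT culture 9.

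**Figure D2:**
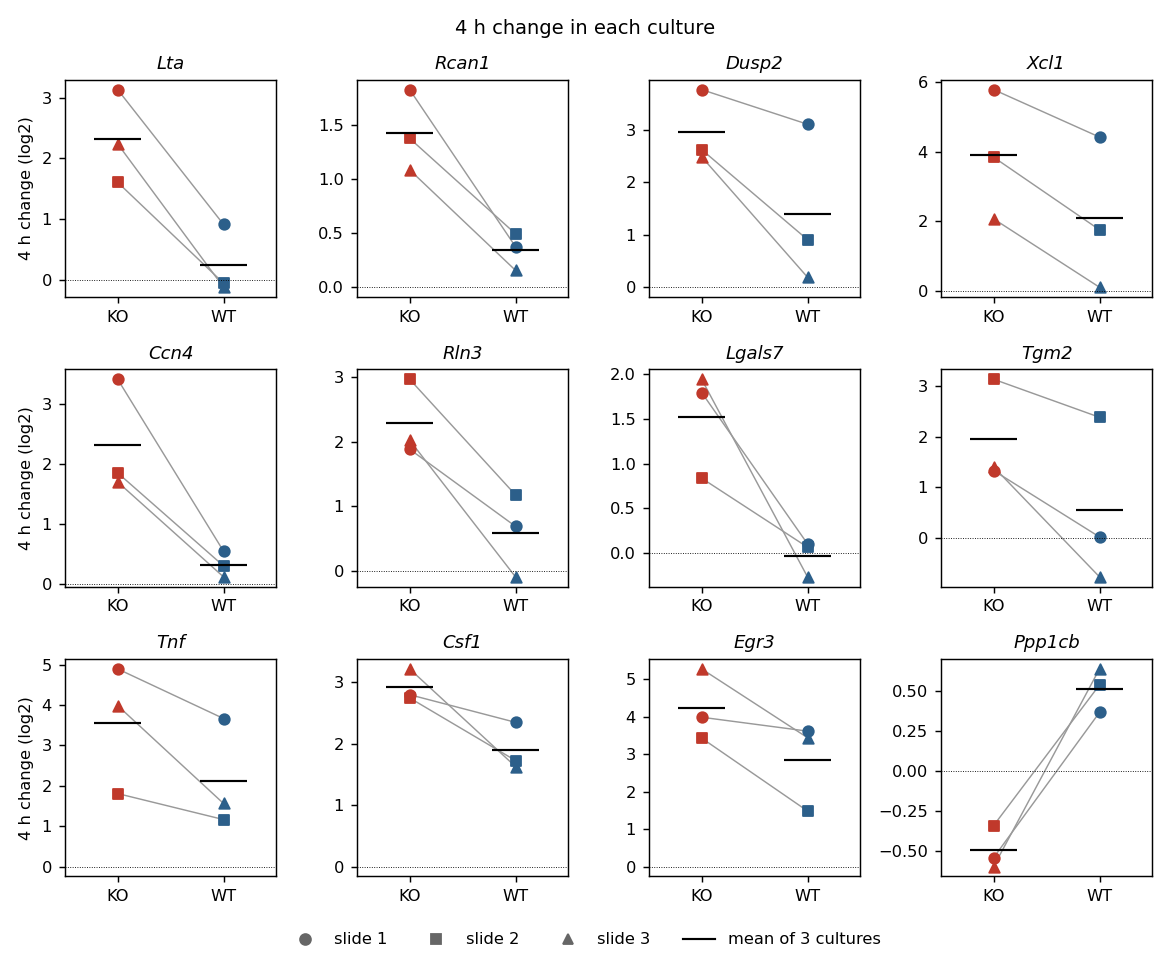
Change at 4 h (log2, vertical) of 12 genes in each KO culture (left in each panel) and each WT culture (right), with grey lines that join the cultures of 1 slide and black bars for the means of 3 cultures. Every grey line falls towards WT except in Ppp1cb, where the KO changes of -0.34 to -0.60 lie below the WT changes of 0.37 to 0.64. WT signals of Ccn4 and Lgals7 were below the detection limit.

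Rcan1, which inhibits calcineurin, was above the limit on all 12 arrays. At 4 h its levels were 10.08, 10.01 and 9.81 in KO cultures, against 9.34, 9.31 and 9.06 in WT cultures. Untreated levels were 8.25, 8.63 and 8.72 in KO cultures, against 8.96, 8.81 and 8.91 in WT cultures. The order of the genotypes thus turned, with every KO array below every WT array at rest and above every WT array at 4 h. The changes were 1.83, 1.38 and 1.09 in KO cultures, against 0.38, 0.50 and 0.16 in WT cultures, which is a mean of 2.70-fold in KO cultures and 1.27-fold in WT cultures. The difference of 1.09 ± 0.21 had an adjusted p of 0.479 across all genes and 0.0487 within slides, and a second Rcan1 probe gave 1.42. Without slide 3 the slide-paired adjusted p was 0.15.

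Dusp2, a phosphatase that inactivates MAP kinases in activated immune cells, had 4 h levels of 11.05, 9.00 and 9.83 in KO cultures, against 9.07, 6.71 and 6.57 in WT cultures. It was above the limit at 4 h on all 3 KO arrays and on 1 of 3 WT arrays, and at rest on 2 of 3 KO arrays and 0 of 3 WT arrays. The KO change was higher on each slide, by 0.66, 1.71 and 2.29. In WT cultures 8 and 9 Dusp2 was below the limit on both arrays, so no WT change was measured on slides 2 and 3. The call of Dusp2 within slides thus rests in part on signals below the limit. The difference was 1.55 ± 0.59 (adjusted p = 0.9997 across all genes and 0.0475 within slides), and a second probe gave 1.41. Dusp1, a related phosphatase, had changes of 1.23, 0.11 and 0.31 in KO cultures, against -0.68, -0.39 and -1.11 in WT cultures. The signs were opposite, but the difference of 1.27 ± 0.64 did not pass either fit (adjusted p = 0.9997 and 0.125). Of the 12 measured MAP kinase phosphatases and Sprouty-type inhibitors, 10 had a higher change in KO cultures, yet apart from Dusp1 and Dusp2 the largest difference of the list was 0.35, for Dusp5. The median of the list was 0.08, against 0.02 over all genes, of which 53.5% had a higher change in KO cultures.

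Egr3, an early transcription factor that NFAT can induce, had changes of 3.99, 3.43 and 5.28 in KO cultures, against 3.61, 1.48 and 3.44 in WT cultures. KO culture 4 lay below WT culture 6, and the difference of 1.38 ± 0.55 did not pass either fit (adjusted p = 0.9997 and 0.142). Its relative Egr2 had a difference of 0.02 (-0.05 under median scaling) with a 95% interval of -1.16 to 1.19. Over the 24 measured immediate early factors, 21 had a higher change in KO cultures and 0 passed. The list's median difference was 0.26 (0.21, 0.02 and 0.45 on slides 1, 2 and 3), and the median change was 0.41, 0.40 and 0.34 in KO cultures, against 0.09, 0.13 and 0.10 in WT cultures. Most of the shift was small: Egr3 apart, the differences ran from -0.31 (Mafk) to 0.61 (Zfp36). Of 33 measured inhibitors of receptor signalling 18 had a higher and 15 a lower change in KO cultures, and 0 passed. The median difference of these inhibitors was 0.03, against 0.02 over all genes (-0.01 under median scaling). Socs3, which restrains cytokine receptor signalling, is named as a member of that list with a large difference, at 0.94 ± 0.57. Its changes were -0.59, 0.27 and 0.55 in KO cultures, against -0.88, -0.91 and -0.79 in WT cultures.

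The 4 remaining genes complete the 10 with the smallest p for a higher KO change. They are Rsph3a, which encodes a radial spoke protein of cilia, Nabp2, which encodes a single-strand DNA binding protein, Dlg3, a scaffold protein of the membrane, and Plekho2. Their differences were 0.85 ± 0.23, 0.76 ± 0.22, 0.93 ± 0.27 and 0.62 ± 0.18, and none passed either fit. A second Nabp2 probe gave 0.46, against 0.76. For Nabp2 and Dlg3 the change was positive in all 3 KO cultures and negative in all 3 WT cultures, a pattern held by 68 genes (0.757%). Rsph3a differed at rest, with levels of 8.33, 8.92 and 8.65 in KO cultures, against 9.24, 9.59 and 9.50 in WT cultures. At 4 h its levels were 8.69, 8.30 and 8.58 in KO cultures, against 8.35, 8.43 and 8.67 in WT cultures, which overlap. All 10 of these genes had a higher mean 4 h level in KO cultures, with no overlap for 8 of them, whereas at rest 4 were higher and 6 lower in KO cultures. Their choice by a higher KO change favours higher KO levels at 4 h, so these counts are a description.

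The genes with a lower KO change were led by Ppp1cb, a catalytic subunit of protein phosphatase 1, which acts on myosin and on many other proteins. Its 4 h levels were 10.03, 10.0025 and 9.79 in KO cultures, against 10.31, 10.48 and 10.64 in WT cultures. Untreated levels were 10.57, 10.34 and 10.38 in KO cultures, against 9.94, 9.94 and 9.997 in WT cultures. The order of the genotypes turned here too, from higher KO levels at rest to lower KO levels at 4 h, with no overlap at either time. The changes were -0.54, -0.34 and -0.60 in KO cultures, against 0.37, 0.54 and 0.64 in WT cultures. The difference was -1.01 ± 0.16, with an adjusted p of 0.365 across all genes and 0.0475 within slides. A second probe for the gene gave -0.56. Without slide 3 the slide-paired adjusted p was 0.167.

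The other 9 genes with the smallest p for a lower KO change were Rbm25, Tgs1, Plscr5, Hs2st1, Vps13a, Ddx10, Rsl24d1, Tpm3 and Abcc1. Rbm25, a splicing factor, had changes of -0.81, -0.60 and -0.31 in KO cultures, against 0.23, 0.05 and 0.38 in WT cultures. Tgs1, which methylates the cap of small nuclear RNAs, had changes of -0.73, -0.34 and -0.48 in KO cultures, against 0.26, 0.47 and 0.24 in WT cultures. Both therefore had opposite signs in the genotypes, as did Plscr5, Hs2st1 and Vps13a, a pattern held by 62 genes (0.69%). Hs2st1 encodes a sulfotransferase of heparan sulfate and Vps13a a lipid transfer protein. The 3 other Vps13a probes gave differences of -0.01, -0.05 and -0.30, against -0.66 for the probe used. A second Hs2st1 probe gave -0.31, against -0.59, a second Ddx10 probe -0.32, against -0.63, and the 3 other Tgs1 probes gave -0.43, -0.58 and -0.74, against -0.84. None of the 9 passed either fit, and their differences ran from -0.59 (Hs2st1) to -0.84 (Tgs1).

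For some of these genes the genotypes stood apart at rest and met at 4 h. Rsl24d1, which helps to assemble the large ribosomal subunit, had untreated levels of 10.86, 10.79 and 11.50 in KO cultures, against 10.18, 10.02 and 10.63 in WT cultures. At 4 h its levels were 11.25, 10.92 and 11.36 in KO cultures, against 11.12, 11.33 and 11.25 in WT cultures, which overlap. Tpm3, a tropomyosin of the cytoskeleton, had 4 h levels of 12.47, 12.72 and 12.29 in KO cultures, against 12.73, 12.81 and 12.68 in WT cultures. At rest its levels were 12.42, 12.65 and 12.42 in KO cultures, against 12.23, 12.16 and 11.96 in WT cultures. The 2 other Tpm3 probes gave -0.42 and -0.19, against -0.63 for the probe used, and a second Rsl24d1 probe gave -0.19, against -0.83. Abcc1, a pump that exports leukotriene C4, was above the limit on 0 of 3 KO arrays at 4 h and on at most 2 of 3 in any group, so its difference of -0.62 rests on signals near the limit. All 10 genes with the smallest p for a lower KO change had a higher mean level in KO cultures at rest and a lower one at 4 h. Their choice by a lower KO change favours this pattern, so the count is a description and no separate result.

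Ddx10, a helicase of ribosome production, had changes of 0.03, -0.23 and -0.16 in KO cultures, against 0.52, 0.69 and 0.33 in WT cultures. It belongs to a list of 46 measured genes for making ribosomes, of which 44 had a lower and 2 a higher change in KO cultures. None of the 46 passed, 1 (Ddx10) had an unadjusted p below 0.05, and 5 had KO changes all below the WT changes (4.01% of all genes), which were Ddx10, Nop58, Ncl, Wdr75 and Rrn3. The list's median difference was -0.27. Its median change was 0.22, 0.30 and 0.33 in KO cultures, against 0.50, 0.83 and 0.33 in WT cultures, so that WT culture 9 matched the KO cultures. On slides 1, 2 and 3 the median difference was -0.23, -0.56 and -0.01. In the same fit 3 of these genes rose after 4 h in KO cultures (2.68% of all genes) and 16 in WT cultures (4.13% of all genes), which is no test of a difference. At rest 36 of the 46 had the higher mean level in KO cultures, with a median difference of 0.14, and at 4 h 33 had the lower one, with a median of -0.12. Polr1b, a subunit of RNA polymerase I, showed the same in its mean levels only. At rest its levels were 8.62, 8.15 and 8.61 in KO cultures, against 8.44, 7.45 and 8.31 in WT cultures. At 4 h they were 9.11, 8.40 and 9.00 in KO cultures, against 9.50, 9.01 and 8.72 in WT cultures. The genotypes overlapped at both times.

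In 2 lists with negative median changes the KO medians lay nearer to 0, by small amounts, and 0 of their genes passed. Of 25 quiescence-linked genes 19 had a higher change in KO cultures, with a median difference of 0.32. Their median change was -0.15, -0.24 and -0.21 in KO cultures, against -0.36, -0.48 and -0.28 in WT cultures. Of 37 genes for the interferon response and antigen presentation, 29 had a higher change in KO cultures, with a median difference of 0.18. The median change of that list was -0.19, -0.14 and -0.13 in KO cultures, against -0.32, -0.42 and -0.21 in WT cultures. In both lists each KO median lay nearer to 0 than each WT median. Taken by slide, the median differences were 0.36, 0.46 and -0.05 for the quiescence-linked genes and 0.01, 0.30 and 0.08 for the interferon genes. The genotypes stood apart at rest, where 20 of the 25 and 30 of the 37 genes had the lower mean level in KO cultures. The median KO minus WT level at rest was -0.20 and -0.13. At 4 h it was 0.04 and -0.02, with 12 and 19 genes lower in KO cultures. In the interferon list 6 genes had KO changes all above the WT changes (4.39% of all genes), among them the antiviral genes Rsad2 (0.58) and Oasl2 (0.56). Of 37 lysosome genes 27 had a higher change in KO cultures, with a median difference of 0.09.

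Most of the remaining lists lay close to the background of all genes. Among 24 genes of the NF-kB pathway, a main route to inflammatory gene activity, 15 had a higher change in KO cultures, with a median difference of 0.08. Tnfaip2, a TNF-induced gene of that list, had 4 h levels of 8.79, 7.44 and 6.33 in KO cultures, against 7.36, 6.34 and 6.00 in WT cultures. It was above the limit at 4 h on 2 of 3 KO arrays and 1 of 3 WT arrays and on no untreated array. Its difference of 1.24 ± 0.56 passed only within slides 1 and 2 (adjusted p = 0.0318). Rel, an NF-kB subunit of lymphoid and myeloid cells, had a difference of 0.65 ± 0.26.

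Of 15 measured NFAT pathway genes 9 had a higher change in KO cultures, with a median difference of 0.01. The median difference was -0.0012 over 31 genes of IgE receptor signalling (0.04 under median scaling), 0.06 over 14 granule proteases and 0.01 over 42 genes of oxidative phosphorylation. Of 57 cell cycle genes 31 had a higher change in KO cultures, with a median difference of 0.07. Cholesterol synthesis genes leaned the other way, with 14 of 20 lower and a median of -0.18. Insig1, which restrains that pathway, had changes of -0.35, -0.38 and -0.18 in KO cultures, against 1.26, 0.18 and -0.20 in WT cultures, which overlap. Among 26 genes of DNA methylation and chromatin silencing 16 had a lower change in KO cultures, with a median of -0.05. Suz12, a Polycomb subunit, had changes of -0.47, -0.52 and -0.37 in KO cultures, against -0.04, 0.11 and 0.05 in WT cultures, with a difference of -0.49 ± 0.23 that did not pass either fit.

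**Figure D3:**
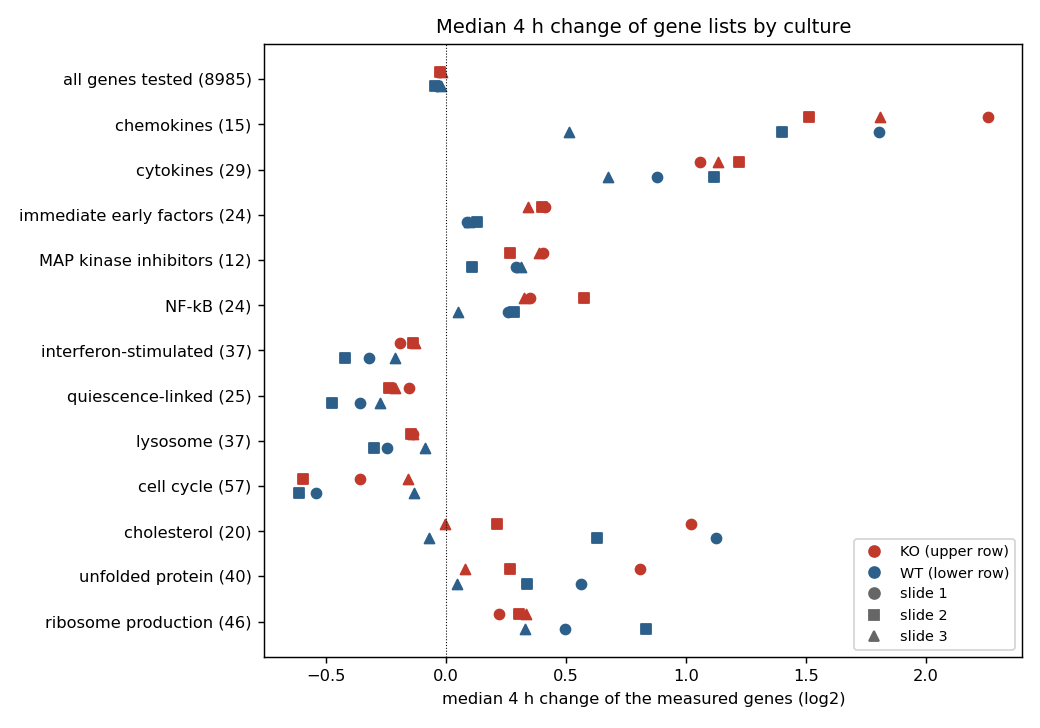
Median 4 h change (log2, horizontal) of 12 gene lists and of all genes tested in each culture, KO in the upper row of each list and WT in the lower row, with the number of measured genes in brackets. For ribosome production the WT cultures of slides 1 and 2 lie at 0.50 and 0.83, to the right of the KO cultures at 0.22 to 0.33, and for immediate early factors all 3 KO cultures lie to the right of the WT cultures.

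Ccl1 and Ccl3 had differences near 0 with wide intervals (-1.21 and -0.97 without WT culture 9), and Ccl7 had a lower mean change in KO cultures. Ccl3, which attracts monocytes, had changes of 6.00, 7.33 and 5.00 in KO cultures, against 6.93, 7.23 and 4.15 in WT cultures. The difference was 0.01 with a 95% interval of -1.68 to 1.70, which takes in sizeable differences in either direction. It was -0.25 under median scaling. The 4 h levels of Ccl3 were 14.62, 14.36 and 14.50 in KO cultures, against 14.64, 14.41 and 12.03 in WT cultures. Except in WT culture 9 they lay near the mean level of 14.61 of Cma1, the brightest mast cell marker measured. Whether the top of the array scale limited these changes was not tested. Ccl1, a ligand of the receptor CCR8, had a difference of 0.15 with an interval of -2.07 to 2.37. Ccl7, another monocyte attractant, had changes of 3.20, 4.23 and 5.00 in KO cultures, against 4.57, 6.21 and 4.38 in WT cultures. Its difference of -0.91 ± 0.49 combined -1.37 and -1.98 on slides 1 and 2 with 0.62 on slide 3, and it passed only without slide 3 (-1.67, adjusted p = 0.0149). At rest the Ccl7 levels were 10.49, 9.07 and 8.84 in KO cultures, against 9.11, 7.33 and 8.67 in WT cultures, and at 4 h they were 13.70, 13.30 and 13.84 in KO cultures, against 13.68, 13.54 and 13.05 in WT cultures.

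Ccl17, which draws T cells through the receptor CCR4, had changes of 1.75, 1.51 and 2.72 in KO cultures, against 0.63, 1.09 and 0.84 in WT cultures, with no overlap. Its difference of 1.14 ± 0.36 did not pass either fit (adjusted p = 0.9997 and 0.192), and it was above the limit at rest on 2 of 3 KO arrays and 1 of 3 WT arrays. Over the 15 measured chemokines 9 had a higher change in KO cultures, with a median difference of 0.10. Of the 29 measured cytokines and growth factors 21 had a higher change in KO cultures, with a median difference of 0.35, and Lta was the 1 that passed within slides. Il13 had a difference of 0.40 with an interval of -0.75 to 1.55, and Il4 one of 0.88 with an interval of -0.06 to 1.82. The KO change of Il4 was higher on each slide, by 0.35, 1.09 and 1.19, with an adjusted p of 0.205 within slides. Csf1, the macrophage growth factor, had the lower resting level in KO cultures, with 7.48, 7.38 and 7.58, against 8.48, 8.44 and 8.32 in WT cultures. Its 4 h levels overlapped, with 10.27, 10.12 and 10.79 in KO cultures, against 10.82, 10.16 and 9.95 in WT cultures. The changes therefore did not overlap, but the difference of 1.02 ± 0.47 did not pass either fit (adjusted p = 0.9997 and 0.192).

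Genes of the resting mast cell that fall on activation gave no call. Fcgr3, a low-affinity IgG receptor, had changes of -1.59, -1.34 and -1.14 in KO cultures, against -1.31, -2.67 and -1.70 in WT cultures. Ypel3, a gene linked to growth arrest, had changes of -2.17, -2.05 and -1.86 in KO cultures, against -2.96, -3.46 and -1.71 in WT cultures. Il16 had a difference of 0.02. Of the 33 activation genes listed 30 were measured, 25 with a higher change in KO cultures, and their median difference was 0.29.

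The weak response of WT culture 9 enters each of these differences. The size of a culture's response was measured as the slope of its 8985 gene changes on the mean changes of the 5 other cultures. The slope was 1.06, 0.977 and 0.643 in KO cultures, against 1.13, 1.24 and 0.398 in WT cultures. Genes that went up at least 2-fold numbered 440, 310 and 159 in KO cultures, against 356, 455 and 67 in WT cultures. WT culture 9 had the smallest response and KO culture 6, its partner on slide 3, the next smallest. The mean slope was 0.895 ± 0.223 in KO cultures and 0.920 ± 0.456 in WT cultures (SD, n = 3 each), a difference of -0.0256 with p = 0.9 in a two-sided exact permutation test, which cannot go below 0.1 here. Slide 3 thus held the weakest culture of either genotype, and slide and culture cannot be told apart in this design.

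The changes of 2 cultures resembled each other most on 1 slide. Across 8985 genes, which are not independent, the KO and WT changes of the same slide correlated with 0.597 to 0.832 (median 0.822, 3 pairs). KO and WT changes from different slides correlated with 0.325 to 0.678 (median 0.539, 6 pairs), and changes of 1 genotype with 0.409 to 0.678 (median 0.616, 6 pairs). On slides 1 and 2 the pair of the same slide was the closest of all pairs, whereas the slide 3 pair lay within the range of the others.

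**Figure D4:**
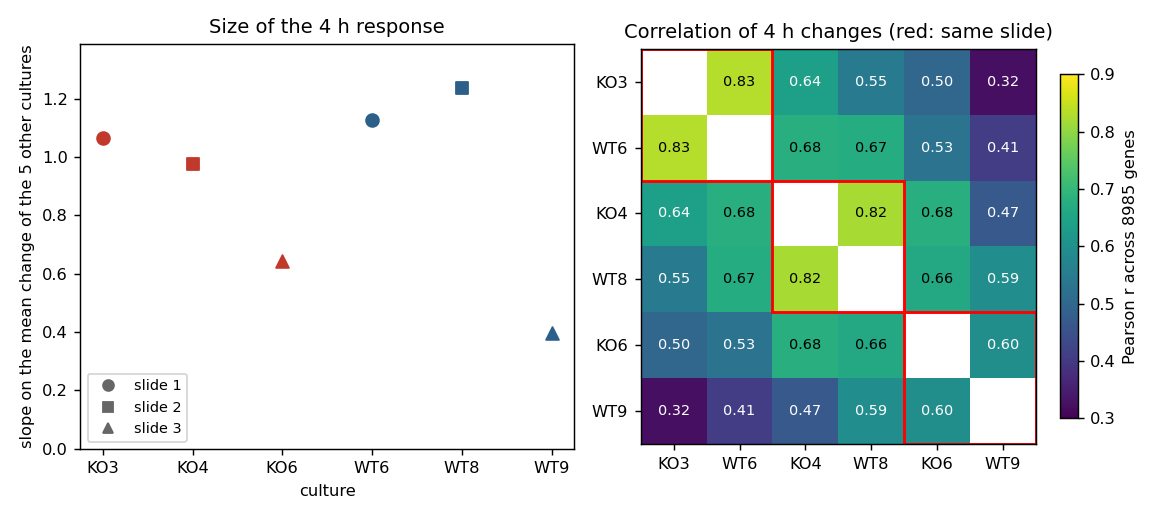
Left, slope of each culture's 4 h changes on the mean changes of the 5 other cultures, KO cultures first, with the marker shape for the slide. Right, Pearson correlation of the 4 h changes of each pair of cultures across 8985 genes, ordered by slide with KO first and with red frames around the cultures of 1 slide; KO culture 6 (0.643) and WT culture 9 (0.398) have the smallest slopes, and the framed correlations are 0.83, 0.82 and 0.60.

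Without WT culture 9, 0 genes passed (0%) and 260 (2.89%) had an unadjusted p below 0.05 in limma's test. The difference in response moved by 0.5 or more for 129 genes, upwards for 31 and downwards for 98, and it took the other sign for 1527 genes. None of the 20 genes with the smallest p took the other sign. That was fixed in advance, since the KO changes of each do not overlap its WT changes. Lta went to 1.89, Rcan1 to 0.998, Rln3 to 1.36 and Ppp1cb to -0.95. Genes with a difference of 1 or more then numbered 22 and those with -1 or less numbered 30, against 29 and 2 with all cultures. In that setting the KO culture of slide 3, whose response was also weak, stayed in. With both cultures of slide 3 left out, the counts were 35 and 15.

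The 5 genes whose difference fell most without WT culture 9 were Csf2, Ccl1, Gzmd, Rgs16 and Samd4, chosen for that shift. Csf2, the granulocyte and macrophage growth factor, was below the limit on all untreated arrays and had 4 h levels of 13.69, 10.35 and 10.48 in KO cultures, against 13.06, 9.90 and 6.78 in WT cultures. The genotypes differed little on slides 1 and 2 (0.66 and 0.28) and by 3.79 on slide 3, so that the difference of 1.58 became -0.01 without WT culture 9. The 4 h level of Csf2 was at least 26.9-fold above the untreated one in KO cultures and at least 9.12-fold in WT cultures. Ccl1 went from 0.15 with all cultures to -1.21 without WT culture 9, Ccl3 from 0.01 to -0.97, and the granzyme Gzmd from 0.69 to -0.43. Rgs16, which shortens G protein signals, went from -0.18 to -1.35, and Samd4, an RNA-binding regulator of translation, from -0.35 to -1.41. In each of these 6 genes the WT change was smallest in culture 9, which the choice of 5 of them for that shift largely fixed in advance. Other induced genes moved less. Ccl7 went from -0.91 to -1.24, Ccl4 from -0.31 to -0.56 and Tnf from 1.43 to 1.15, and the median over the 30 activation genes from 0.29 to 0.20. A second Ccl4 probe gave 0.21 with all cultures, against -0.31, so the direction for Ccl4 depended on the probe.

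Other genes moved upwards. The 5 that moved up most were Neurl3 (-0.16 with all cultures, 0.52 without WT culture 9), Pilrb1 (0.65 and 1.33), Prc1 (0.25 and 0.98), Tbc1d8 (0.26 and 0.97) and Ube2t (-0.20 and 0.53). Prc1 organizes the spindle during cell division. Among the lists, the median of the cytokines went to 0.12, that of the chemokines to -0.04, that of the cholesterol synthesis genes from -0.18 to -0.52, and that of the ribosome production genes to -0.37. The quiescence-linked median was 0.33 (0.32 with all cultures) and the interferon median 0.24 (0.18 with all cultures). Leaving out WT culture 9 thus lowered the cytokine and chemokine medians and moved the ribosome median further from 0.

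**Figure D5:**
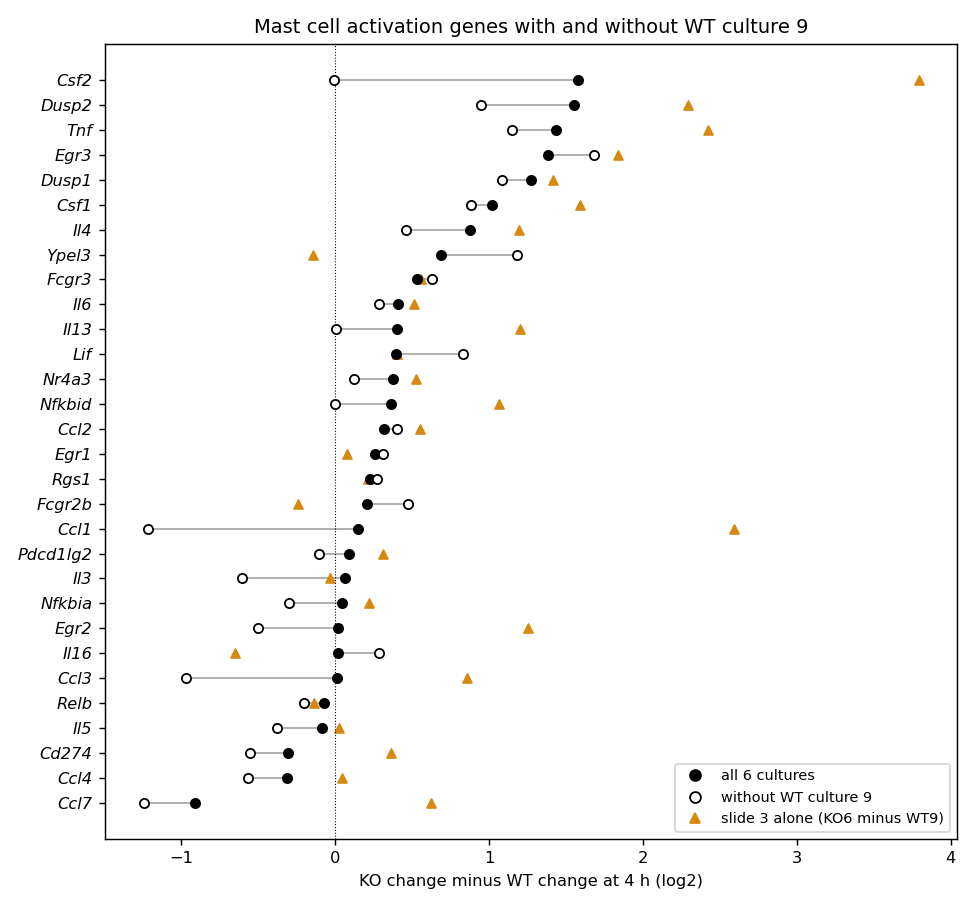
Difference in response (KO change minus WT change, log2, horizontal) for 30 measured mast cell activation genes, with all 6 cultures (filled), without WT culture 9 (open) and on slide 3 alone (triangles). Csf2 went from 1.58 to -0.01 and Ccl1 from 0.15 to -1.21 without WT culture 9, while Egr3 stayed above 1.

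Few markers of most other cell types were measured, among them 5 of 22 for macrophages, 8 of 21 for erythroid cells, 4 of 19 for T and NK cells and 0 of 10 for eosinophils. At 4 h the summed macrophage markers were 1073 to 1893 in KO cultures, against 990.4 to 1317 in WT cultures, and the erythroid markers 6529 to 14930 in KO cultures, against 4645 to 9750 in WT cultures. Both ranges overlap. Of 16 dendritic cell markers 3 were measured, and their sums at 4 h did not overlap, with 740 to 804.1 in KO cultures, against 586.4 to 734.5 in WT cultures. Untreated sums of these 3 were 756.9 to 837.8 in KO cultures, against 680.5 to 764.6 in WT cultures. The summed level of 12 measured basophil markers at 4 h was 61330 to 87010 in KO cultures, against 51510 to 77390 in WT cultures, and 40790 to 49950 in untreated KO cultures, against 47540 to 50640 in untreated WT cultures (linear normalized intensity). That list holds the activation genes Ccl3, Csf1 and Il4. Of 20 stem and progenitor markers, Kit among them, 10 were measured. Their sums at 4 h were 9709 to 14060 in KO cultures, against 12510 to 18440 in WT cultures. Untreated sums were 17550 to 21990 in KO cultures, against 19510 to 24560 in WT cultures. Both pairs of ranges overlap. The mean level was lower in KO cultures for 7 of the 10 at rest and for 8 at 4 h. The difference in response was positive for 5 and negative for 5. The 13 mast cell markers summed to 125900 to 173100 at 4 h in KO cultures, against 143500 to 182700 in WT cultures, with a median difference in response of -0.06. Of the neutrophil and B cell lists 2 genes each were measured, 0 of which were above the limit on all arrays of any group except 1 B cell gene in untreated KO cultures. The part of cell composition in the differences was not tested, and in bulk RNA fewer cells of a type and less RNA per cell cannot be told apart.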

How the data were processed

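Total RNA of mast cells was measured on 18 Illumina mouse bead arrays. Per the labels' protocols, labelling used biotinylated cRNA and an Ambion kit. The deposited table of intensities is linear and, judged by its values, neither background subtracted nor scaled between arrays. The authors' log2 table matched quantile-normalized log2 intensities of the first to within 0.000556 (array medians 6.917). Each array's group, culture and slide came from its labels. For the software that made these tables, no source used here gives a name.

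Intensities were corrected by normexp (offset 50), quantile normalized and log2 transformed with limma 3.58.1 in R 4.3.3. An array's detection limit was the signal that a share of 0.01 of 1506 olfactory and vomeronasal receptor probes reached (107 to 222). Probes above it on 3 or more of all 18 arrays, the 24 h arrays among them, were kept. These were 16669 probes for 8985 genes, each gene represented by its brightest kept probe. The 2596 kept probes with no single gene were tested apart (0 past the threshold in limma, 128 at an unadjusted p below 0.05). Names came from the platform annotation, where 34885 of 45281 probes had 1 symbol, 18 several and 10378 none, and 34807 matched the GRCm38.p6 gene table. Promoters were matched by symbol.

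All 18 arrays were fitted in limma (lmFit, eBayes, two-sided) with culture as a fixed block, which left 8 residual degrees of freedom per gene. The contrast was the 4 h minus untreated change in KO minus that in WT, with Benjamini-Hochberg adjustment over 8985 genes at 0.05. Changes were also compared within slides (the slide-paired fit). Each ± after a difference is limma's standard error, from 3 cultures per genotype, and where a gene was below its limit in all arrays of a group a fold is "at least", against that limit. P-values of the fit across all genes measure the spread between cultures. Those of the slide-paired fit measure the spread of the KO minus WT difference between slides. That fit has fewer residual degrees of freedom, and fewer still without slide 3. Either spread may be technical, since the labels do not name separate animals. The pipeline was tested on simulated data. No array copied another (highest correlation 0.9831).

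Named genes are the 10 of either direction with the smallest p (no gene passed), 2 members per list chosen by size of difference, the activation genes, and the 5 of either direction that moved most without WT culture 9. The genes, lists and comparison were chosen with earlier results of these data known. Pairing was checked on deviations from the group means. Arrays of 1 culture correlated with 0.134 to 0.625 (18 of 18 pairs over 0.1), which bears on the culture block. Arrays of 1 slide and condition correlated across genotypes with 0.181 to 0.75 (9 of 9 pairs over 0.1). Alternatives were other background corrections, scalings, filters, blocks, array weights, changes divided by the response slope, and cultures or slide 3 left out. The slide-paired fit without slide 3 was chosen after seeing the data.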

Additional observations from a re-analysis of the deposited data

Results flagged for a closer look

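For 9 named genes all 3 KO changes had one sign and all 3 WT changes the other. The differences in response were 0.9331 for Dlg3, 1.2729 for Dusp1 and 0.7611 for Nabp2, where KO changes were positive, and -0.5929 for Hs2st1, -0.7836 for Plscr5, -1.0108 for Ppp1cb, -0.7956 for Rbm25, -0.8367 for Tgs1 and -0.6569 for Vps13a, where KO changes were negative. In limma's test of the difference across all genes none of the 9 passed (adjusted p = 0.365 for Ppp1cb and 0.9997 for the others). In the slide-paired fit Ppp1cb passed (adjusted p = 0.0475). Over all genes tested, 68 (0.757%) and 62 (0.69%) had such opposite signs.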

How the results depend on the processing

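The count of genes past an adjusted p of 0.05 was 0 in the fit with the culture as a fixed block. It was 9 in the fit with a replicate block and slide by condition and 6 in that fit without slide 3. It was 0 with no replicate block (95 genes at an unadjusted p below 0.05) and 0 in the other settings run in limma, with a smallest adjusted p of 0.0517 where the culture was a random block and of 0.0878 without the filter on dim probes. Leaving out each culture in turn gave 0 genes each time, with 135 to 294 genes at an unadjusted p below 0.05. The 20 genes with the smallest p kept their sign in each setting that measured them, and stricter detection left 19 of them. Where a culture or slide 3 was left out this was fixed in advance, since their KO and WT changes do not overlap. With no replicate block 16 of them had an unadjusted p below 0.05. The array weights did not fully converge. Under median scaling the median difference of all genes was -0.0207 in place of 0.0188, and 3 named genes turned sign (Ccl3, Egr2 and Nfkbia, all near 0). The slope difference ran from -0.0172 to -0.0382 in its 6 alternatives.

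Over 22 settings the median difference of ribosome production genes ran from -0.40 to -0.14 and that of immediate early factors from 0.15 to 0.35. The quiescence-linked and interferon medians stayed above 0. The cholesterol median turned to 0.11 without KO culture 6 and to 0.10 without WT culture 6, and the chemokine median to -0.04 without WT culture 9 and to -0.11 without its 4 h array. Csf2 ran from -0.01 without WT culture 9 to 3.16 without WT culture 6, Xcl1 from 0.81 to 2.97 and Tgm2 from 0.42 to 2.33. The cause of these moves was not tested. Signal over background limits genes that one genotype did not show above the detection limit, such as Lgals7, Ccn4 and Fasl, where the WT change was not measured.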
